A study of Rattus norvegicus with 2 samples.

Results

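The brush border is the microvillus membrane of the absorptive cells that line the small intestine, and the enzymes anchored in it carry out the last steps of protein and phosphate ester digestion. Described here is a family of 10 genes named after that membrane, in the duodenum of 2 rats. Its members are the peptidases Anpep, Enpep, Dpp4, Mme, Mep1a, Mep1b and Ace, the gamma-glutamyl transferase Ggt1, and the alkaline phosphatases Alpi and Alpl. Of the phosphatases, Alpi is the intestinal enzyme, while Alpl is the tissue-nonspecific enzyme known from bone, liver and kidney. They were chosen by name as a family, with earlier results of these data known. Every probe set of the rat U34A array annotated to 1 of these genes was taken, 16 with a single gene symbol, 1 shared by Ace and Ace3, and 1 without a symbol, X03518cds#3_s_at, which the membership rule gives as gamma-glutamyl transpeptidase, the older name of Ggt1. This gave 18 of the 8799 probe sets, for 10 of 4736 genes.

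The immobilized group was a male Wistar rat of 15 weeks kept for 2 weeks in an immobilization cage, and the control group was a male Wistar rat of the same strain and age kept over the same 2 weeks in a metabolic cage. Total RNA of the duodenal mucosa of each was hybridised to 1 array, and the labels call the material duodenal epithelial cells. Because each group had a single array, the variation from rat to rat is unknown: no test between the groups could be made, no p-value is given, and every ratio compares these 2 rats. Fewer cells of a type and less RNA per cell cannot be told apart in such tissue RNA. The only measured spread was the SD of the log2 ratio of the 2 arrays among probe sets of the same gene. It was 0.31 (696 genes with 1570 probe sets). This SD does not cover differences between animals or a shift shared by a whole array.

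Signals are those deposited, with the immobilized rat's array scaled by a factor of 1.015 to bring the median of the log2 ratios to 0. The floor, 39.9 signal units, was the median of all signals, and a ratio was taken only where both arrays exceeded it. Log2 ratios are of the immobilized over the control rat, so that a negative value means a lower signal in the immobilized rat. The deposited signals had means of 312.0 on the control and 300.6 on the immobilized rat's array. Enterocyte markers were present, with 15 of the 15 listed genes on the array exceeding the floor in both rats. Exocrine pancreas markers also exceeded it, 17 of 19, although the label names only epithelial cells.

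Dietary proteins that reach the duodenum have been cut by pancreatic proteases into peptides, which the membrane enzymes shorten from their ends or cut within until peptide and amino acid carriers can take them up. Several of the same enzymes also inactivate or form peptide hormones, such as angiotensins and incretins. Intestinal alkaline phosphatase removes phosphate from nutrients and from bacterial products, and it has long been used as a marker of mature enterocytes.

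A gene's value was that of its single-symbol probe set of highest mean signal. By this value, most of these genes had lower signals in the immobilized rat. The range was from hardly any difference for Ace and Anpep to 2.29-fold lower for Ggt1, while Alpl was 1.29-fold higher. A log2 ratio below 0 was found for 9 of 10 genes, against 50.6% of all 2524 genes above the floor. The median was -0.27 against -0.0065 for all genes. After quantile normalization and after loess 7 of 10 were below 0 and 3 above. Ggt1 was the only gene at 2-fold by this value, 1 of 10 genes against a background of 0.674% lower by that size. Enpep was the other gene lower by at least 1.5-fold, 2 of 10 against 4.87%. No member was higher by 1.5-fold, a size that 8.32% of all genes reached. Of the 10 genes, 6 lay within 1 SD of probe sets of the same gene, that is within 0.31 of 0. The share of all genes within it was not counted. The log2 ratios of all genes had a wider SD, 0.41, so a value beyond 0.31 does not set a gene apart.

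Over probe sets, 17 of the 18 exceeded the floor in both rats, and 15 of these 17 were below 0, against 50.1% of all probe sets. The median was -0.39, and 10 of the 17 lay beyond 1 SD, a share that was not counted over all probe sets. A signal lower by at least 2-fold was measured at 3 of the 17 probe sets, against 0.853% of 4105 probe sets, and lower by at least 1.5-fold at 5, against 5.46%. The 3 probe sets were both of Ggt1 and 1 of the 2 of Mme. Probe sets of a gene share their target, so these counts do not stand for separate genes.

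**Figure D1:**
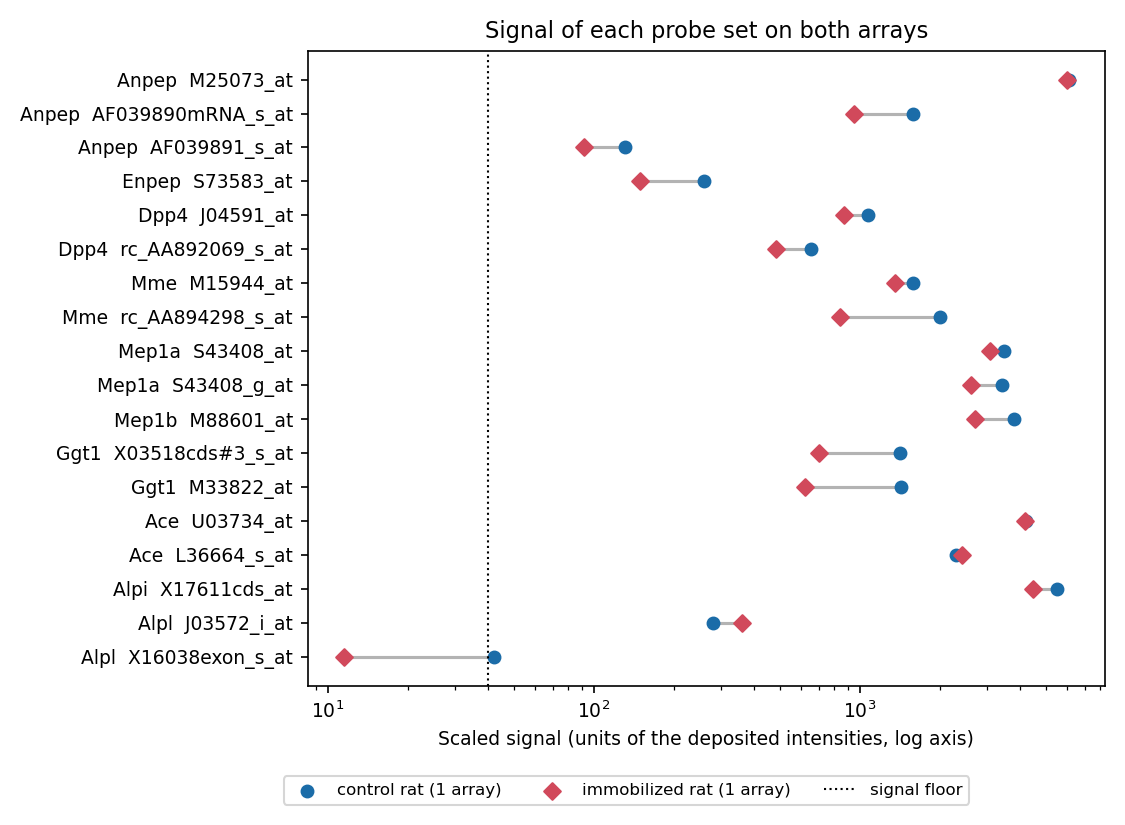
Scaled signal (x axis, log scale, in units of the deposited intensities) of each of the 18 probe sets in the control rat (circles) and the immobilized rat (diamonds), 1 array each, with the floor of 39.9 as a dotted line. The widest gaps above the floor are those of Ggt1 and of the second Mme probe set, while both Ace probe sets and the first Anpep probe set have nearly the same signal on both arrays.

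By gene value Ggt1 had the lowest ratio of the family, although 1 Mme probe set was lower still, at -1.25. Ggt1 encodes the membrane enzyme that takes the gamma-glutamyl group from extracellular glutathione, the first step in recovering its amino acids. At M33822_at the signal was 1431 in the control rat and 624 in the immobilized rat, 2.29-fold lower, a log2 ratio of -1.20. The second probe set, X03518cds#3_s_at, had 1413 in the control rat and 699 in the immobilized rat, 2.02-fold lower. Its mean signal was the higher, 1056 against 1027, but without a symbol it did not give the gene value. The probe sets thus gave nearly the same picture, with log2 ratios 0.18 apart, and Ggt1 was the only family member with more than 1 probe set at 2-fold. Across the array, 7 of 2524 genes had a lower log2 ratio than Ggt1. The ratio hardly moved with the processing, from -1.22 to -1.19 at M33822_at over 8 settings, and the other probe set, at -1.04 or above, stayed at least 2-fold lower in each of them.

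The peptidases that work from the amino end were lower at 6 of 6 probe sets, against 50.1% of all probe sets, and at 5 of 6 after quantile normalization or loess. Enpep, aminopeptidase A, removes acidic residues and converts angiotensin II to angiotensin III. Its single probe set had 259.9 signal units in the control rat and 149.1 in the immobilized rat, 1.74-fold lower. By gene value, the log2 ratio of -0.80 was the lowest of the family after Ggt1, with 1.7% of all genes lower still. It lay from -0.85 to -0.79 over the settings.

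Dpp4, dipeptidyl peptidase 4, releases dipeptides that end in proline or alanine and inactivates the incretin hormones. Its first probe set, J04591_at, had signals of 1076 in the control rat and 869 in the immobilized rat, a log2 ratio of -0.31. The second had 653 and 484, a log2 ratio of -0.43. Both were lower in the immobilized rat, and the first lay just within 1 SD of probe sets of the same gene.

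Anpep, aminopeptidase N, is among the main enzymes of the brush border membrane and removes neutral residues. Its probe sets did not give 1 answer. M25073_at, the one with the highest mean signal, had 6083 signal units in the control rat and 6021 in the immobilized rat, a log2 ratio of -0.015. AF039890mRNA_s_at had 1584 and 946, a log2 ratio of -0.74. AF039891_s_at had 130.8 and 91.6, a log2 ratio of -0.51. The log2 ratios spanned 0.73, so the value of this gene depends on which probe set is taken. The sign at M25073_at also turned with the scaling, with 0.17 after quantile normalization and 0.11 after loess.

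**Figure D2:**
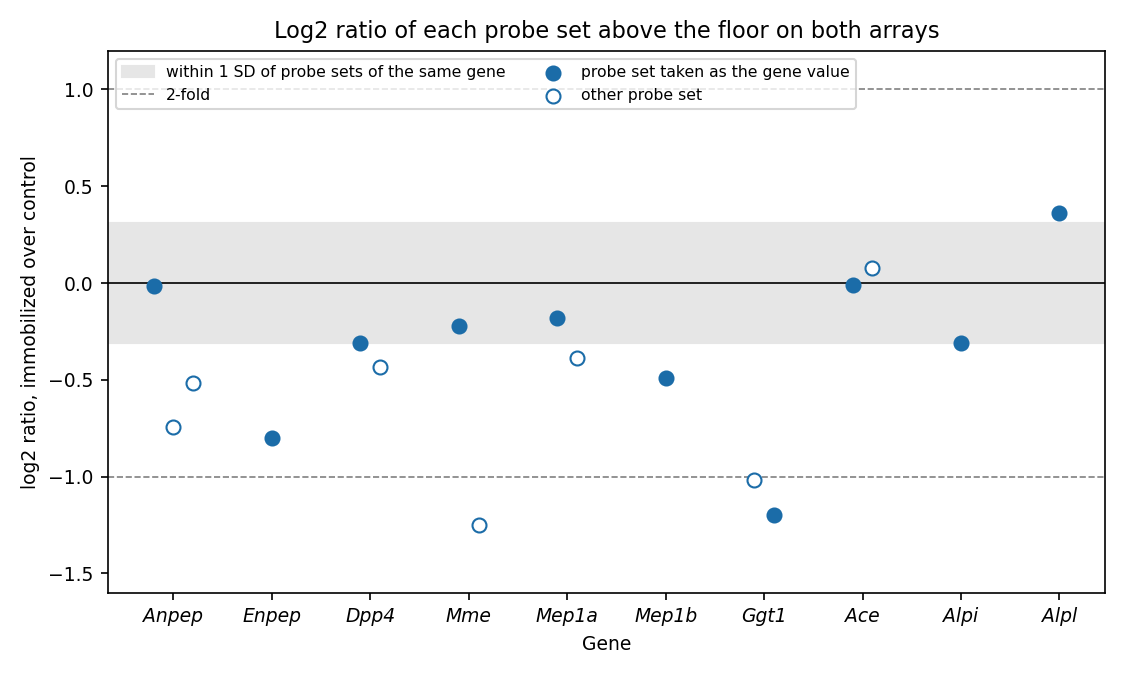
Log2 ratio of the immobilized over the control rat (y axis) for the 17 probe sets above the floor on both arrays, by gene. Filled points are the probe sets taken as gene values, open points the others, the grey band is 1 SD of probe sets of the same gene (0.31), and dashed lines mark 2-fold. Ggt1 has both points below -1, whereas Mme and Anpep have points that lie far apart.

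The promoters of 4 members are shown as examples: Ggt1 and Enpep as the genes of lowest gene value, Anpep for its probe sets that lie apart, and Alpi as the intestinal phosphatase. Each is the stretch of 250 bases before the gene's start in RefSeq's rat assembly GRCr8, written 5′ to 3′ along the gene's strand. The windows were searched on both strands for the half-site of the homeodomain factor HNF1 (GTTAAT), the core of an element bound by the nuclear receptor HNF4 (CAAAGTCCA), an element of the intestinal CDX factors (TTTATG), the GATA core (AGATAA) and the TATA box (TATAAA). Capitals mark matches, and no match in a member overlapped another. Ggt1 is transcribed from several starts, and only the one in the table is shown.
Ggt1, chr20:13095105-13095354, minus strand: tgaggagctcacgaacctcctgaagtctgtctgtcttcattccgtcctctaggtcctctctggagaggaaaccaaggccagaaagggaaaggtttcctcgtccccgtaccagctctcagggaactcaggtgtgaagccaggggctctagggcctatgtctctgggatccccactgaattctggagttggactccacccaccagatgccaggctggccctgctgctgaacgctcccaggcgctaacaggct
Enpep, chr2:220526219-220526468, minus strand: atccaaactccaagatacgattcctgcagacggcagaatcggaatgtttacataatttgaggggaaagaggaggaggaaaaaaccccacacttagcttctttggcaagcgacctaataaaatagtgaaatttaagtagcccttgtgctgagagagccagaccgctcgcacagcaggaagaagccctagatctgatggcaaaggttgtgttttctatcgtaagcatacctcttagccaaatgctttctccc
Anpep, chr1:143195102-143195351, minus strand: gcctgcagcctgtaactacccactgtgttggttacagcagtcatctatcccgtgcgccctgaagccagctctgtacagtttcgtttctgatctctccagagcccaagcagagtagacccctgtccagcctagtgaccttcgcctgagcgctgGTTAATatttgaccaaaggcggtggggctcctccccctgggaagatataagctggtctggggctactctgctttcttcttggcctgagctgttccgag
Alpi, chr9:95224781-95225030, minus strand: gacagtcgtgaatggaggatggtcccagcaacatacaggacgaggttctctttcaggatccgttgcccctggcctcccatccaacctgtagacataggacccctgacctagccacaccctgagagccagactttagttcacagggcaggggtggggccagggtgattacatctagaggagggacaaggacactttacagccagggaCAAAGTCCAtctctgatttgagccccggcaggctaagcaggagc

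All 10 members had a promoter in the table. The HNF1 half-site GTTAAT was found in 2 of the 10 windows, those of Anpep, where it begins 98 bases before the start, and Mep1b. It was present in 6.45% of all 33469 windows of the same length. The HNF4 core CAAAGTCCA was found in Alpi only, 44 bases before the start, and in 0.338% of all windows. The CDX element was found in Mep1a and in 11.4% of windows, the TATA box in Ace and in 12.9%, and the GATA core in no member and in 10.3%. The windows of Ggt1 and Enpep held none of these 5 sequences, which says only that these letters do not occur there. A match is a description of the sequence and was not related to the signals.

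The endopeptidases, which cut within peptide chains, were lower at 5 of 5 probe sets, against 50.1% of all probe sets. All 5 had a mean signal above 1000, and of all genes that bright 64.5% were below 0. Of the 5, 2 lay within 1 SD of 0, a share not counted over all probe sets. Mme encodes neprilysin, a zinc enzyme that degrades many peptide hormones. M15944_at had 1578 signal units in the control rat and 1351 in the immobilized rat, a log2 ratio of -0.22. The second probe set, rc_AA894298_s_at, had 2006 and 844, 2.38-fold lower, a log2 ratio of -1.25. Both were lower, but the sizes were 1.03 apart on the log2 scale. M15944_at gave the gene value, with a mean signal of 1464 against 1425 at the second probe set. Differences of over 1 were seen in 31 of the 696 genes with several probe sets above the floor, 4.45% of them.

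Mep1a and Mep1b encode the alpha and beta subunits of meprin, a metalloprotease abundant in the rodent brush border. For Mep1a, S43408_at had 3491 signal units in the control rat and 3076 in the immobilized rat, a log2 ratio of -0.18. The other Mep1a probe set, S43408_g_at, had 3412 and 2605, a log2 ratio of -0.39. For Mep1b the single probe set had 3793 and 2699, 1.41-fold lower, a log2 ratio of -0.49. The RNA signals of both genes were lower in the immobilized rat, but S43408_at of Mep1a lay within 1 SD of probe sets of the same gene. Whether the genes differed from each other could not be tested, and the second Mep1a probe set lay 0.10 above that of Mep1b on the log2 scale.

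Ace encodes the angiotensin-converting enzyme, which removes dipeptides from the carboxyl end and in the gut also digests peptides. It had nearly the same signal in both rats. U03734_at had 4217 signal units in the control rat and 4183 in the immobilized rat, a log2 ratio of -0.012, whose sign turned after quantile normalization (0.097) and loess (0.085). L36664_s_at, which the annotation shares with Ace3, had 2290 and 2414, a log2 ratio of 0.076. Ace is also known from endothelium, and 1 of 8 endothelial markers on the array exceeded the floor in both rats, Nos3. Nos3 had 81.4 signal units in the control rat and 51.1 in the immobilized rat, a log2 ratio of -0.67, but -0.13 at another probe set. The summed signal of all 8 markers was 243.8 in the control rat and 199.4 in the immobilized rat. Most of it came from markers not above the floor in both rats. Of the markers, 0 were listed at 0, and their part in the Ace signal was not tested.

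The alkaline phosphatases had ratios of opposite sign. Alpi encodes the intestinal enzyme, and its probe set had 5516 signal units in the control rat and 4455 in the immobilized rat, 1.24-fold lower, a log2 ratio of -0.31 (-0.33 to -0.19 over the settings). Akp3, the second intestinal alkaline phosphatase gene of the rat, was named with the other brush border enzymes and had 6185 and 4471, a log2 ratio of -0.47. The genes are related copies, and how far the probe sets share RNA was not examined. Alpl encodes the tissue-nonspecific enzyme known from bone, liver and kidney, and it was the only member with a gene value above 0.

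Alpl at J03572_i_at had 280.7 signal units in the control rat and 361 in the immobilized rat, 1.29-fold higher, a log2 ratio of 0.36. Its other probe set, X16038exon_s_at, had 42.1 in the control rat, just above the floor, and 11.5 in the immobilized rat, not above it. That is a bound of at least 1.06-fold lower. The direction of Alpl thus rests on 1 probe set, and the second was too dim to bear on it.

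**Figure D3:**
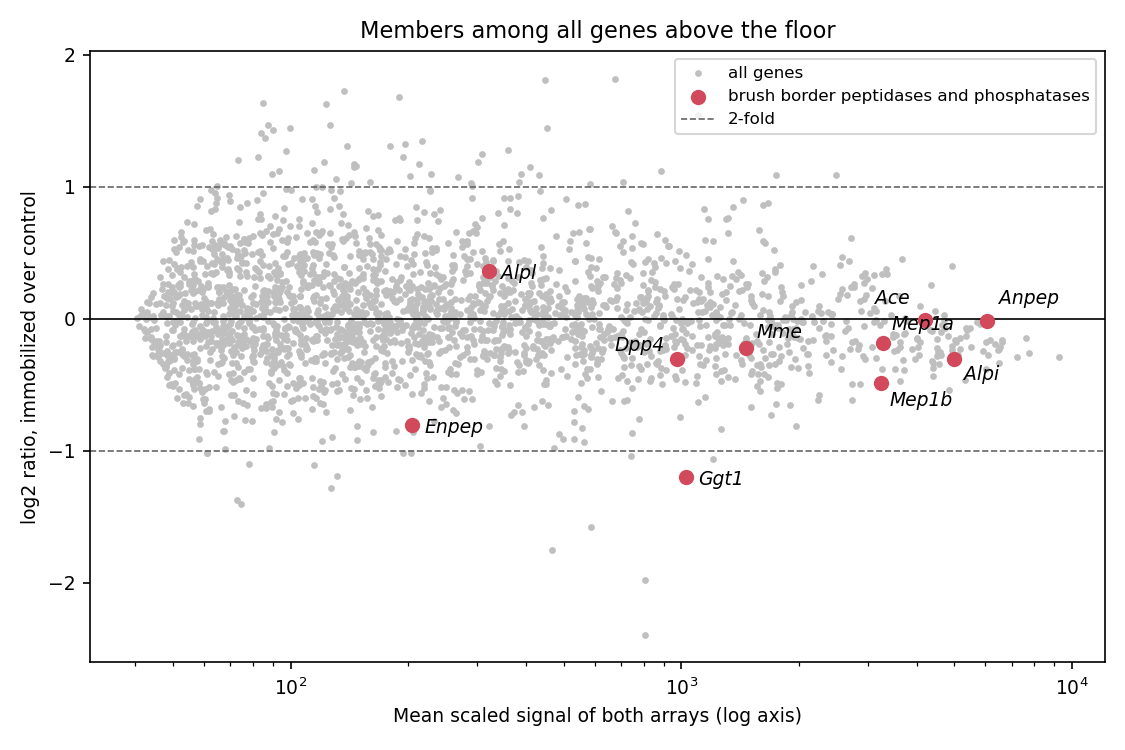
Log2 ratio (y axis) against mean scaled signal of both arrays (x axis, log scale) for the 2524 genes above the floor (grey), with the 10 members in red and dashed lines at 2-fold. The members lie mostly at the bright end and below 0, with Ggt1 below the other members and Alpl alone above 0.

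Bright genes as a whole were a little lower in the immobilized rat. Of the 10 members, 7 had a mean signal of at least 1000, and 7 of these 7 were below 0 with a median of -0.22. Among them Anpep (-0.015) and Ace (-0.012) lay very near 0. Both were above 0 after quantile normalization (0.17 and 0.097) and after loess (0.11 and 0.085). Of all 409 genes that bright, 64.5% were below 0, with a median of -0.085 and an SD of 0.32. At least 1.5-fold lower were 2.93% and at least 2-fold lower 0.489% of them. The signal limit was chosen after the values were seen.

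The suffix of a probe set records its design: plain _at sets are unique to a transcript, whereas a letter before _at marks sets for which that rule was relaxed, such as s for sets that match several transcripts. In 4 of 4 members with both kinds under a single symbol (Anpep, Dpp4, Mep1a and Mme), the lettered sets had the lower log2 ratio, with a median difference, lettered minus plain, of -0.41 (-1.03 to -0.12). Over all 542 genes with both kinds, the lettered sets were lower in 52.6%, with a median difference of -0.017. In the same 4 genes the probe set of highest mean signal was the one nearest to 0, which held for 51.0% of the 696 genes with several probe sets.

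Other enzymes of the brush border were more mixed. Of 11 listed hydrolases on the array, 7 exceeded the floor in both rats, 5 of them below 0 and 2 above, with a median of -0.13 and no gene value at 2-fold. The sucrase-isomaltase gene Si, named after its values were seen, had a gene value of -0.28, but -1.66 at another of its 3 probe sets, lower than any probe set of the peptidases and phosphatases. By gene value, farthest from 0 were the disaccharidase genes Treh (trehalase, 0.59) and Lct (lactase, 0.41, -0.0017 at its second probe set), and Akp3. Genes listed under the brush border scaffold were below 0 for 8 of 9 with a median of -0.28. Lowest were the scaffold protein gene Pdzk1 (-0.91), the signalling GTPase gene Rhoa (-0.69), which is not a structural part, and the actin bundler Espn (-0.49). The scaffold's median was close to that of the peptidases and phosphatases, and none was at 2-fold.

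Genes next to these enzymes in their pathways showed no common direction. Of 4 peptide and amino acid carriers above the floor, 2 were below 0 and 2 above, with a median of -0.032. Slc3a1, the subunit of the cystine and basic amino acid carrier, had -0.49 and the peptide carrier Slc15a1 -0.11, with -0.45 at its second probe set. Slc1a1 had 0.38, at signals near the floor, 44.4 in the control rat and 57.7 in the immobilized rat. Among genes of glutathione synthesis and turnover, 5 of 8 were below 0, with a median of -0.079 and none at 1.5-fold. The cystathionine lyase gene Cth had -0.54, the glutathione synthesis gene Gclc 0.53 and the conjugate pump Abcc2 -0.42, while Ggt1, which acts on the same glutathione outside the cell, had -1.20.

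Peptidases outside the brush border, which act in the cytosol, lysosomes or other membranes, were below 0 for 13 of 20 genes, with a median of -0.098. In this list 1 gene was at least 2-fold lower, Tpp2 (-1.02, but 0.34 at another of its 5 probe sets), and Blmh (0.86) and Nrdc (0.84) were the next farthest from 0. The lists were described by counts and medians, and no test set the family apart from them.

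**Figure D4:**
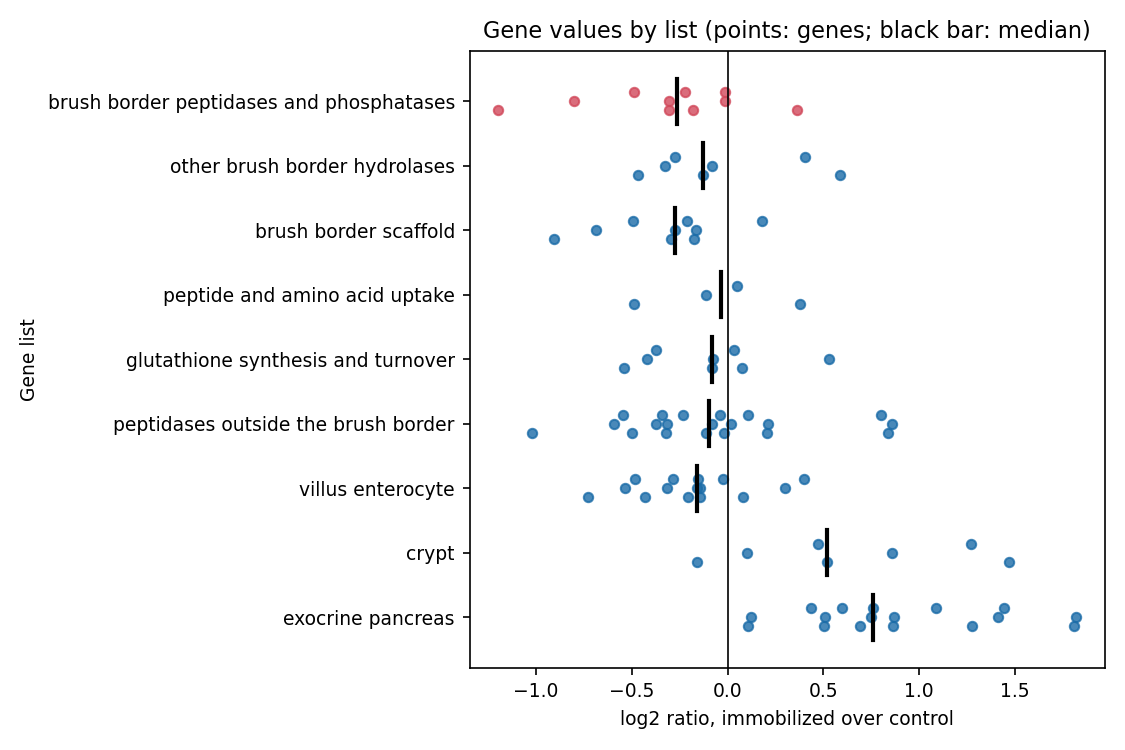
Log2 ratio of the immobilized over the control rat (x axis) for each gene above the floor on both arrays, by gene list, with the list median as a black bar. The brush border peptidases and phosphatases (median -0.27) and the scaffold genes (-0.28) lie mostly left of 0, the other peptidases spread to both sides, and crypt and exocrine pancreas genes lie to the right.

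Markers of other cells differed between the same arrays. Villus enterocyte genes were below 0 for 12 of 15, with a median of -0.16 (-0.21 to -0.046 over the settings) and a summed signal of 67527 in the control rat and 59780 in the immobilized rat. Crypt genes were above 0 for 6 of 7, with a median of 0.52. Their summed signals were 1257 and 1720, over all 12 listed genes on the array, above the floor or not. The farthest from 0, Cdk4 (1.47) and Ccnb1 (1.27), were dim, with 66.9 and 57 in the control rat. With the floor at the 70th percentile 3 crypt genes remained, with a median of 0.48. Exocrine pancreas genes were above 0 for 17 of 17, with a median of 0.76 and summed signals of 7757 and 14502. Fibroblast and smooth muscle genes were above 0 for 6 of 11, with a median of 0.28 and 4 of them at least 1.5-fold higher, among them Acta2 (1.68, but -0.13 at another probe set), Vim (0.90) and Pdgfra (0.89). Their summed signals were 4763 and 4253, most of it from 1 gene, Sparc, with 3676 in the control rat and 2827 in the immobilized rat. With the floor at the 70th percentile 2 genes remained, with a median of -0.37. Leukocytes, which can carry Dpp4, Anpep and Mme, had 4 of 15 markers above the floor, 3 of them higher, with summed signals of 3532 and 4394. Most of these sums came from Cd74, with 2776 in the control rat and 3144 in the immobilized rat, a log2 ratio of 0.18, but -0.13 at another probe set. Farthest from 0 was Lyz2 (1.03), with 465 in the control rat and 952 in the immobilized rat. With the mean or the dimmest probe set of a gene, 2 of the 4 were below 0. No marker of these lists was listed at 0, and the part of any of them in the family's lower signals was not tested. The hybridisation spike-ins, RNAs added to each sample, were lower in the immobilized rat at 7 of 9 probe sets, with a median of -0.21, and their part was not tested either.

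**Figure D5:**
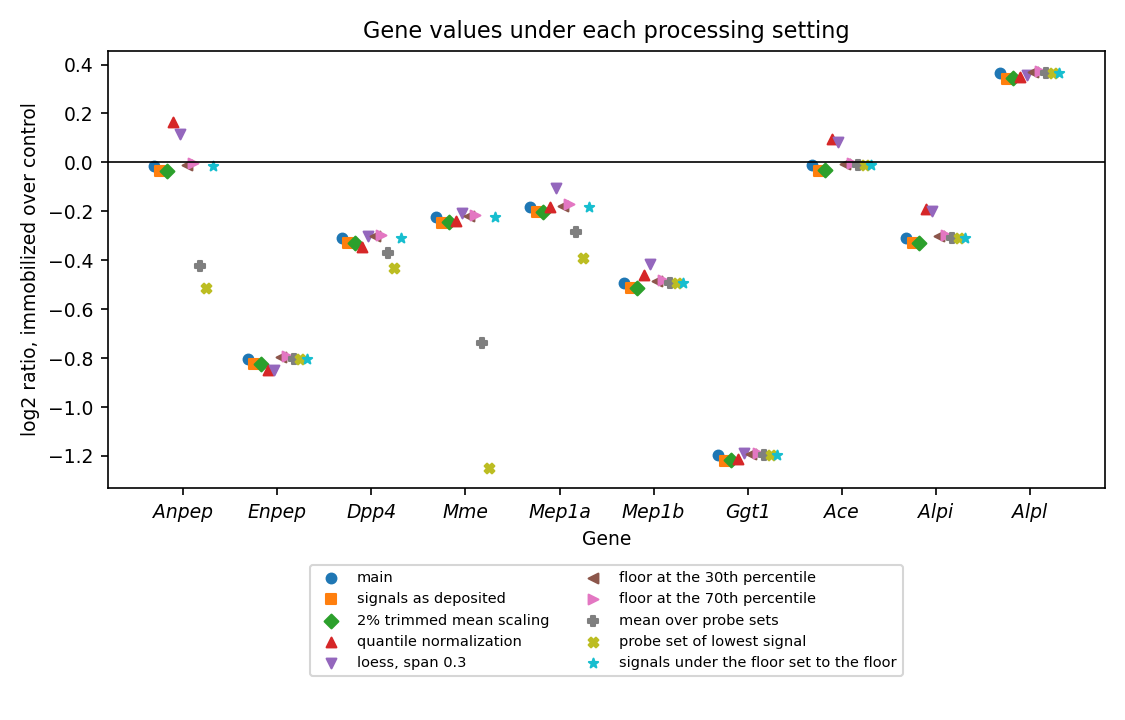
Gene value of each member (y axis, log2 ratio of the immobilized over the control rat) under the 10 processing settings, 1 symbol per setting. Ggt1, Enpep and Alpl keep nearly the same value throughout. Each had a single probe set with 1 symbol above the floor, so the choice of probe set could not move them. Mme and Anpep, with more than 1, move with that choice. Anpep and Ace lie above 0 after quantile normalization and loess.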

How the data were processed

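RNA of 1 control and 1 immobilized rat was measured on rat U34A arrays. The deposited values are linear signal intensities of probe sets, which the authors made with the manufacturer's software per the series' design text; the submitters' processing notes name MAS5. The signal algorithm is therefore unsettled, and detection calls were not used here.

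Symbols were updated through the gene ID to RefSeq's GRCr8 names. Of 8799 probe sets, 59 were array controls, 7006 had 1 symbol, 308 several and 1426 none. A gene's value was its single-symbol probe set of highest mean signal. Named were all members with all their probe sets and, of each other list, at most the 3 genes with the largest absolute log2 ratio. Si, Sparc and Cd74 were named besides, after their values were seen. The members and lists were chosen with earlier results of these data known. Alternatives were other scalings (as deposited, 2% trimmed mean, quantile, loess with span 0.3), a floor at the 30th or the 70th percentile, the mean or the dimmest probe set of a gene, and dim signals set to the floor. Scaling and counting were tested on simulated data. Python 3.11.15, numpy 2.4.6, pandas 2.3.3, statsmodels 0.14.6 and matplotlib 3.10.9 were used.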

Additional observations from a re-analysis of the deposited data

How the results depend on the processing

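No paired analysis was possible because each group had 1 array. A value with no test was taken to have moved when it shifted by over 1 SD of probe sets of the same gene. The number of members below 0 was 9 of 10 in 8 of the 10 settings, the main one included. It was 7 after quantile normalization and after loess, where Anpep and Ace turned positive, so that 3 members lay above 0 in each. Signals as deposited, trimmed mean scaling and the other floors multiply the immobilized rat's array by a single factor, from 1 to 1.023. Dim signals set to the floor left every member's gene value unchanged. These settings could thus hardly change the count. The median over members ranged from -0.46 (dimmest probe set) to -0.20 (loess). The gene values of Mme (-0.74 with the mean over probe sets, -1.25 with the dimmest) and Anpep (-0.42 and -0.51) moved with the choice of probe set. Counting only member probe sets with 1 symbol, chosen after seeing the data, left 2 of 15 at 2-fold lower and 4 at 1.5-fold. The background counts over all genes moved with the floor, which changes how many genes are tested. With the floor at the 30th percentile (3405 genes), 277 were at least 1.5-fold and 71 at least 2-fold lower, and 358 and 110 higher. At the 70th percentile (1522 genes) these were 57, 9, 96 and 22. With dim signals set to the floor, 26 of 2827 genes were at least 2-fold lower, against 17 of 2524. Signal over background limits Alpl at X16038exon_s_at, and the single array per group limits every value.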
